A study of Mus musculus with 8 samples.

Results

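The genes described here are 10 members of the Notch pathway, namely the receptors Notch1, Notch2 and Notch3, the ligands Jag1, Jag2, Dll1 and Dll4, and the target genes Hes1, Hey1 and Hey2. They were taken by gene name from the array files, which gave 14 probes of the 41174 on the array, on 32 spots per array, and 10 of 27827 gene names. Mouse embryos were dissected at E9.5 for their posterior second heart field (pSHF), the mesoderm dorsal to the heart that contributes cells to the septum between the atria. Pools of RNA from 4 Tbx5+/- and 4 wild-type samples were each hybridized to 1 Agilent array with 60-base probes. Tbx5+/- embryos are heterozygous for a mutation of the T-box transcription factor Tbx5 (Tbx5-/+ in the labels), wild-type embryos carry none, and the Tbx5 mice were kept on a mixed background. The mothers of all embryos were hormone-treated to give large litters. The tissue had been cut free of the neural tube and of the anterior second heart field. The number of embryos per pool is not given in the labels, and p-values measure the spread between these pools. Samples are named by the embryo numbers of the labels, which are 1, 5, 6 and 7 for either genotype, where 1 and 5 carry array label 1 while 6 and 7 carry array label 2.

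Notch receptors are transmembrane proteins that are bound by Jagged and Delta-like ligands on a neighbouring cell. Binding leads to cleavage of the receptor, first by an ADAM protease and then by gamma-secretase, and the freed intracellular domain enters the nucleus, where it joins the DNA-binding protein Rbpj and a Mastermind-like coactivator. Genes of the Hes and Hey families, which encode transcriptional repressors, are the best known targets. In the embryonic heart Notch1 and Dll4 are known from the endocardium and arterial endothelium, and Jag1 is mutated in Alagille syndrome, which includes heart defects.

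The probes of Notch1, Notch2, Jag1 and Dll1 are shown by 30 bases of each, because these genes have multiple probes or a probe with repeated spots. Coordinates are those of the files, on mm9, and the sequences run 5′ to 3′ on the strand of the gene. The exon or UTR that each probe falls in was not analysed here. Both Notch1 probes lie side by side on chromosome 2 (minus strand), at chr2:26314772-26314830 (A_51_P508510) and chr2:26314830-26314889 (A_52_P183088), and the capital G in the first 30 bases of one and the last 30 of the other is the base that they share.
Notch1 A_51_P508510, start: Ggcactaggggaaaaacatatctgttccaa
Notch1 A_52_P183088, end: cctttttatttatatgtattgttttctatG
The 3 Notch2 probes lie on chromosome 3 (plus strand) at chr3:97951205-97951264 (A_51_P216397), chr3:97952843-97952902 (A_52_P448796) and chr3:97953914-97953973 (A_52_P289213), in this order from the 5′ to the 3′ side, and their first 30 bases are given in the same order, with no base marked.
Notch2 A_51_P216397, start: cccagagtctcctgaccaatggtcaagctc
Notch2 A_52_P448796, start: tctgtggtaatctaggatgatagttttctc
Notch2 A_52_P289213, start: ccacttgaagtcttgcatagaaatgaacca
The Jag1 probes lie on chromosome 2 (minus strand), A_51_P280906 at chr2:136908942-136909001 and A_52_P634090 at chr2:136907433-136907492 further to the 3′ side.
Jag1 A_51_P280906, start: acgagaacaaaaactccaaaatgtcaaaaa
Jag1 A_52_P634090, start: ggagtattctcataagctagttgaatactt
The single Dll1 probe lies at chr17:15504623-15504682 (minus strand) and is repeated on 10 spots of each array.
Dll1 A_51_P306017, start: gattactatgagccagtctttccttgaact

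Values are normalized signals on the log2 scale after variance stabilization (VSN), differences are Tbx5+/- minus wild-type, and per-array values are given in the order of the numbers 1, 5, 6 and 7. The transcript of the mutated gene, read by probe A_52_P523712, was 9.01, 9.73, 9.16 and 8.62 in Tbx5+/- and 11.47, 11.56, 10.42 and 11.54 in wild-type, so Tbx5 was lower in every Tbx5+/- sample (difference -2.12, adjusted p = 0.0921 with limma over 20030 probes, 0.0336 with the replicate number as a block). The second Tbx5 probe, A_51_P469338, differed by -0.15, and where either probe lies relative to the mutated part of the gene is not given in the labels. Spots well above background made up 45.0% to 52.8% of each Tbx5+/- array and 50.9% to 63.6% of each wild-type array. On the leading principal component, which held 56.9% of the variance, Tbx5+/- 1 (score -37.2) lay with the wild-type arrays (-52.4 to -10.0) and apart from the other Tbx5+/- arrays (26.1 to 112.1), so results are also given without it. All 10 markers of pSHF mesenchyme that were looked up were well above background on every array of at least 1 group, and so were the 10 cardiomyocyte, 10 foregut endoderm and 14 endothelial markers. The pSHF markers had a median difference of -0.80, with 7 lower and 3 higher (Isl1 by 0.35, Foxf2 by 0.25 and Wnt2 by 0.06). With the block 5 of the 10 were called lower, the mutated gene Tbx5 itself, Foxf1a, Osr1, Gata4 and Hoxb1, where 10.7% of all probes were. The summed level of the pSHF markers was 14.00 to 15.51 in Tbx5+/- and 14.83 to 15.60 in wild-type. Several cell types were thus read together, and fewer cells of a type cannot be told apart from less RNA per cell.

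No Notch member passed the test. Of the 14 member probes 12 were tested, covering all 10 genes, and 0 reached an adjusted p of 0.05 with limma (smallest 0.176), where 0.0% of all 20030 probes did. With the replicate number as a block 0 member probes passed either (smallest adjusted p 0.0833), beside 10.7% of all probes called lower and 0.379% called higher. At an unadjusted p under 0.05 there were 3 member probes lower, both Notch1 probes and Notch2 A_52_P448796, and 1 higher, Jag1 A_52_P634090, against 18.5% of all probes lower and 3.37% higher. Only Notch2 A_52_P448796 had 4 Tbx5+/- values below the 4 wild-type values, and 0 member probes had them all above (8.98% and 0.744% of the 20021 probes without a missing value). In SAM, the permutation method that the study used, reprogrammed here and run on the probes that its filter keeps, 7 member probes took part and the Notch1 probes had q-values of 0.0227 and 0.0393, where 32.7% of the 9204 probes with complete values were called lower and 4.61% higher.

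As a list the members were split between both directions. The difference was below 0 for 5 probes and above 0 for 7, from -0.85 (Notch1) to 0.65 (Dll1), with a median of 0.03 beside -0.19 over all probes tested. Relative to that median 4 members lay below and 8 above.

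**Figure D1:**
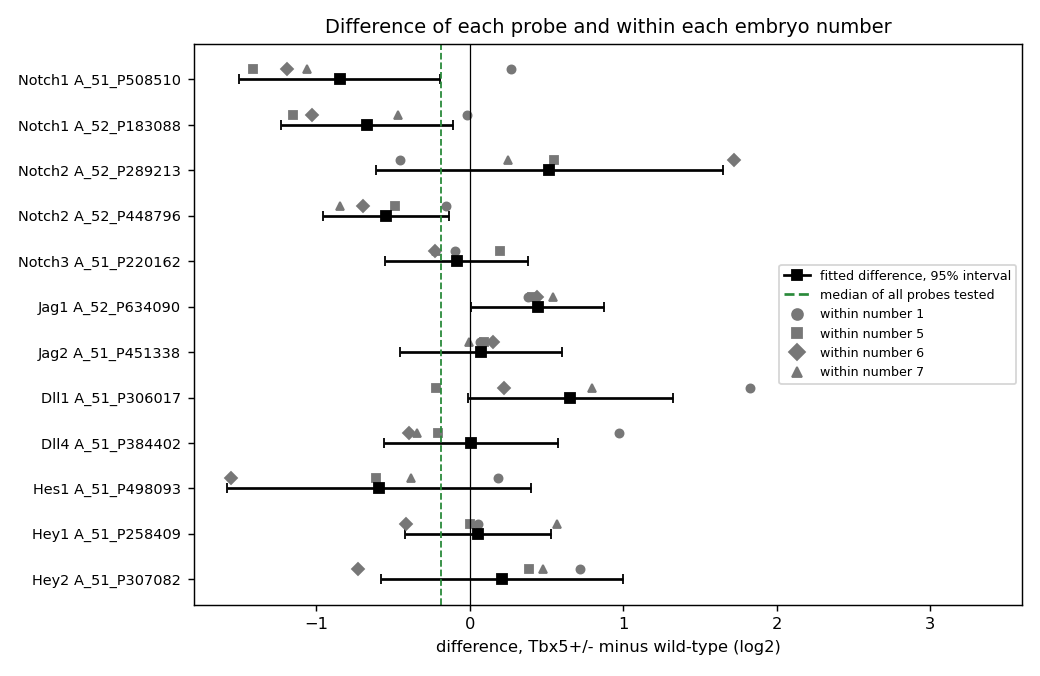
Difference of each member probe, Tbx5+/- minus wild-type on the log2 scale (x axis), with its 95% interval from limma (black squares and bars, n = 4 per group) and the difference within each embryo number (grey symbols). The intervals of Notch1 and of Notch2 A_52_P448796 lie below 0 before adjustment for the number of probes, that of Jag1 above 0, and the dashed line marks the median of all probes at -0.19.

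Among the receptors, Notch1 had the largest difference of the members in the VSN fit of all arrays without a covariate. After percentile scaling and after quantile normalization Dll1 had the largest (1.04 and 0.93). The Notch1 probe A_51_P508510, repeated on 10 spots, read 8.88, 8.48, 8.06 and 8.49 in Tbx5+/- and 8.61, 9.89, 9.25 and 9.55 in wild-type. The wild-type samples 5, 6 and 7 lay above every Tbx5+/- sample, while wild-type 1 lay within the Tbx5+/- range. The difference was -0.85 ± 0.29 (SE, n = 4 per group), 1.80-fold lower, with an adjusted p of 0.183 in limma and 0.0833 with the block. The exact permutation p was 0.0571, where the smallest that 4 against 4 samples allow is 0.0286. Repeated spots of this probe on an array had SDs of 0.0496 to 0.134, which cover printing and scanning error only.

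The adjoining Notch1 probe gave a second reading of the same stretch of transcript. A_52_P183088 read 7.41, 7.26, 6.88 and 7.58 in Tbx5+/- and 7.43, 8.41, 7.91 and 8.05 in wild-type, with wild-type 1 again inside the Tbx5+/- range. It differed by -0.67 ± 0.25 (SE, n = 4 per group; adjusted p = 0.198 in limma, 0.0862 with the block). Since both probes hybridize the same cRNA, they are not independent readings of the genotype. The difference within a number was 0.26, -1.41, -1.19 and -1.06 for the repeated probe and -0.02, -1.15, -1.03 and -0.47 for its neighbour, so number 1 stood apart from the other numbers on both. For the repeated probe it was -0.57 among the samples of array label 1 and -1.13 among those of array label 2. Without Tbx5+/- 1 it was -0.98 (adjusted p = 0.0508 in limma) and without wild-type 1 it was -1.09 (adjusted p = 0.0869 in limma).

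Transcripts of endothelium, a tissue known to express Notch1, were read on the same arrays. The summed level of 14 endothelial markers ranged from 15.50 to 15.99 on the log2 scale in Tbx5+/- and from 15.75 to 16.21 in wild-type, with a median difference of -0.35 over the markers. The difference was below 0 for 9 of them and above 0 for 5, of which Robo4 was the highest (0.49), and 2 of the 14, Kdr (-1.12) and Sox18 (-1.26), were called lower with the block, a share close to the 10.7% of all probes. All 5 arterial markers had a difference below 0, from -1.23 to -0.02 with a median of -0.52. Their sum was 13.61 to 14.44 in Tbx5+/- and 14.00 to 14.74 in wild-type. Of the 5, Nrp1 (-1.23) and Sox17 (-1.01) were called lower with the block, beside 10.7% of all probes. The part of these cells in the Notch1 values was not tested. Notch4, the other endothelial receptor, differed by -0.34 (95% interval -0.81 to 0.13).

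**Figure D2:**
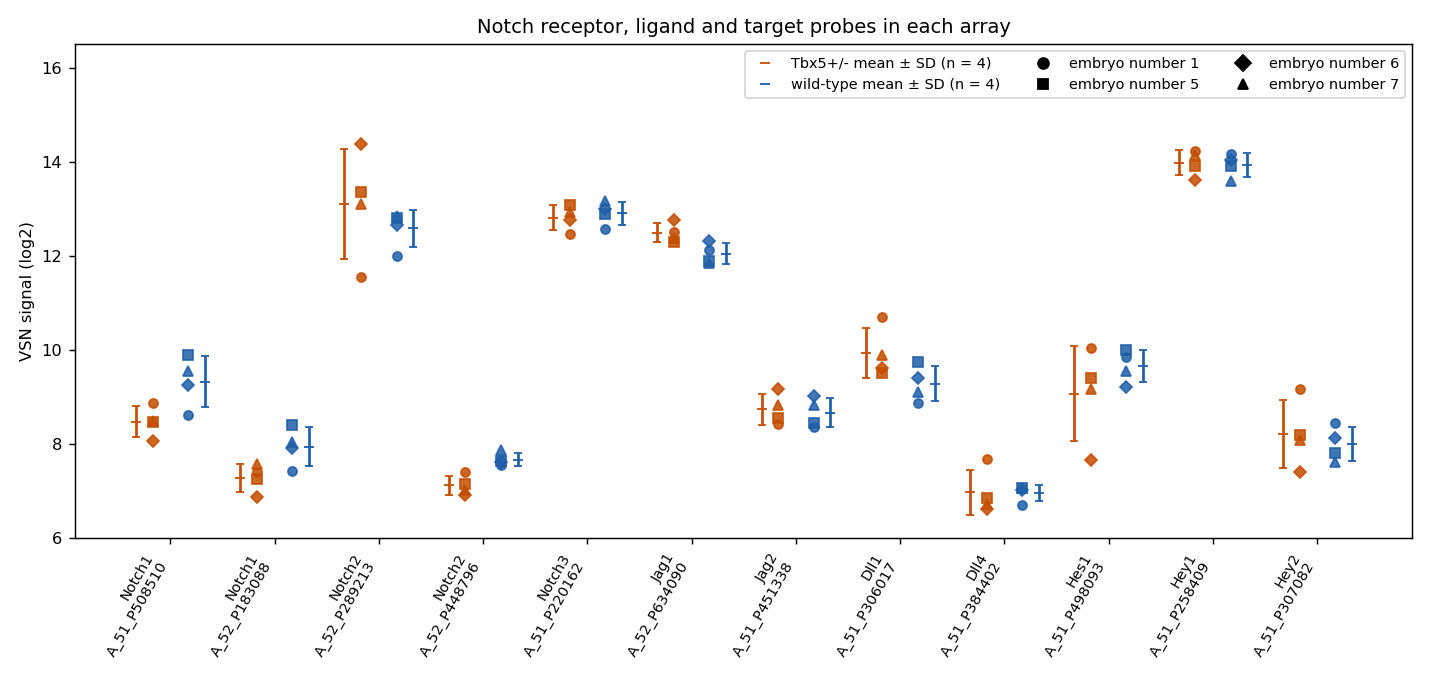
VSN signal on the log2 scale (y axis) of the 12 member probes tested in each Tbx5+/- (orange) and wild-type (blue) array, with the symbol giving the embryo number and bars the mean ± SD of 4 arrays. Heights of different probes cannot be compared, and within a probe the groups overlap everywhere but at Notch2 A_52_P448796.

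Notch2, a broadly expressed receptor, gave opposite differences on the probes that could be tested. The 3′ probe A_52_P289213 read 11.56, 13.35, 14.38 and 13.11 in Tbx5+/- and 12.01, 12.80, 12.66 and 12.86 in wild-type. The Tbx5+/- samples 5, 6 and 7 lay above all wild-type samples and Tbx5+/- 1 below them, and the difference was 0.52 ± 0.51 (SE, n = 4 per group; adjusted p = 0.538 in limma). It was 1.03 without Tbx5+/- 1 (adjusted p = 0.0604 in limma) and 0.09 without Tbx5+/- 6. The probe A_52_P448796, which starts 1071 bases to the 5′ side, read 7.40, 7.16, 6.93 and 7.02 in Tbx5+/- and 7.56, 7.65, 7.62 and 7.87 in wild-type. Here every Tbx5+/- sample lay below every wild-type sample, by 0.15 within number 1 and by 0.49 to 0.85 within the others, although only 3 of the Tbx5+/- arrays read the probe well above background. Its difference of -0.55 ± 0.18 (SE, n = 4 per group) had an adjusted p of 0.176 in limma, 0.0848 with the block and 0.0325 without Tbx5+/- 1, a setting that called 12.1% of all probes lower. The most 5′ probe, A_51_P216397, was well above background, by the scanner's mark, on 0 arrays of Tbx5+/- and 1 of wild-type and was not tested.

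The distance between both Notch2 probes varied from array to array. The 3′ probe minus the 5′ probe was 4.15, 6.19, 7.46 and 6.09 in Tbx5+/- and 4.45, 5.15, 5.04 and 4.99 in wild-type, a difference between the groups of 1.06 (exact permutation p = 0.143, and 0.229 after adjustment over the 2 probe pairs compared) that became 1.67 without Tbx5+/- 1. The same arrays differed in how bright 5′ probes were beside 3′ probes of a gene. This gap, the median over 1624 genes with probes at least 300 bases apart (none of them a member), was -0.65, -0.996, -1.21 and -1.09 in Tbx5+/- and -0.67, -0.86, -0.91 and -0.85 in wild-type. The array with the widest gap, Tbx5+/- 6, had the largest Notch2 distance, and those with the narrowest, Tbx5+/- 1 and wild-type 1, had the smallest. With the gap as a covariate the 3′ probe differed by -0.22 (adjusted p = 0.627 in limma) and A_52_P448796 by -0.44 (adjusted p = 0.217 in limma), both below 0. The gap was wider in Tbx5+/- 5, 6 and 7 than on any wild-type array, so this fit cannot separate it from genotype. The part of the gap in the Notch2 values was not tested. For the Notch1 pair, which adjoin, the distance differed between the groups by -0.18 (exact permutation p = 0.229).

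**Figure D3:**
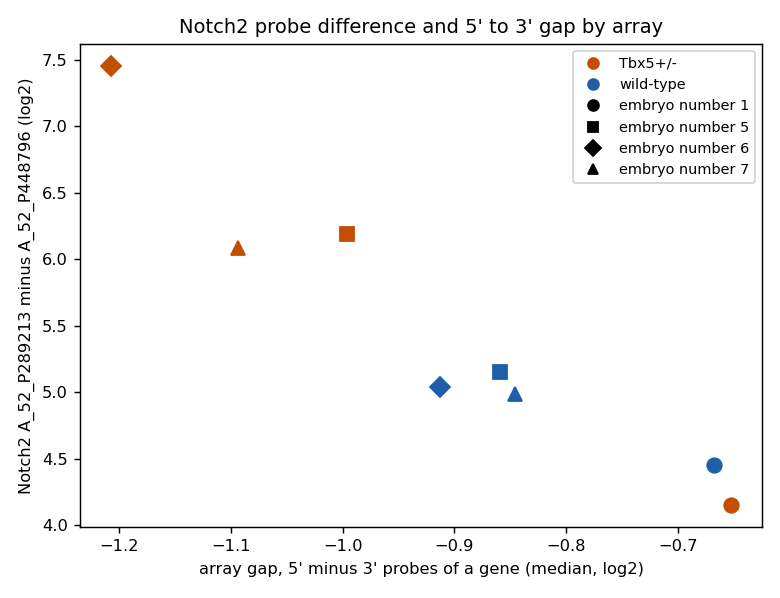
Signal of Notch2 probe A_52_P289213 minus that of A_52_P448796 (y axis, log2) against the median gap of 5′ minus 3′ probes over 1624 genes (x axis, log2) for each of the 8 arrays. Tbx5+/- 6 sits at a gap of -1.21 and a distance of 7.46, and Tbx5+/- 1 lies beside wild-type 1 at the opposite corner.

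Notch3, the receptor of vascular smooth muscle and pericytes, read 12.47, 13.08, 12.77 and 12.94 in Tbx5+/- and 12.57, 12.88, 12.99 and 13.16 in wild-type. The groups overlapped over nearly their whole range. The difference was -0.09 with a 95% interval of -0.55 to 0.38, which bounds any change of this probe more narrowly than for most members. Smooth muscle and pericyte markers had a median difference of 0.05, and 0 of the 6 were called with the block.

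The ligand Jag1 could be tested on its bright probe only. The bright probe, A_52_P634090, read 12.51, 12.30, 12.76 and 12.38 in Tbx5+/- and 12.14, 11.89, 12.32 and 11.84 in wild-type. It was higher in Tbx5+/- within all 4 numbers, by 0.38, 0.40, 0.44 and 0.54, while across numbers Tbx5+/- 5 lay just under wild-type 6. The fitted difference was 0.44 ± 0.19 (SE, n = 4 per group), 1.36-fold higher, with an adjusted p of 0.225 in limma, 0.1003 with the block and 0.129 without Tbx5+/- 1. It was 0.39 within array label 1 and 0.49 within array label 2, and 0.41 with the gap as a covariate. The other Jag1 probe, on the 5′ side, was also not tested, being well above background on 3 arrays of wild-type and 0 of Tbx5+/-, and its measured signals were lower in Tbx5+/- within all 4 numbers, by 0.52, 0.03, 1.09 and 0.26. These signals lie near background, so Jag1 rests on 1 probe.

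Dll1, a ligand known from neural and presomitic tissue, read 10.70, 9.52, 9.63 and 9.91 in Tbx5+/- and 8.87, 9.74, 9.41 and 9.11 in wild-type. The highest value was that of Tbx5+/- 1 and the lowest that of wild-type 1, and the remaining samples overlapped. The difference of 0.65 ± 0.30 (SE, n = 4 per group; adjusted p = 0.232 in limma, 0.184 with the block) was 0.40 without Tbx5+/- 1, and within the numbers it was 1.83, -0.22, 0.22 and 0.79. Repeated spots of this probe on an array had SDs of 0.0155 to 0.0695. The summed level of the 7 neural markers tested, of 10 looked up, was also lowest in wild-type 1 (10.69), but highest in wild-type 5 (13.72), and lay between 11.89 and 12.57 in Tbx5+/-. The others, Sox1, Olig2 and Neurog1, were not well above background. Of the 9 somite and presomitic markers 4 were tested, with sums of 12.36 to 14.03 in Tbx5+/- and 12.08 to 14.09 in wild-type, and Pax3, Myf5, Uncx, Mesp2 and Ripply2 were not well above background. The part of either tissue in the Dll1 values was not tested.

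Jag2 and Dll4 differed little on average. Jag2, a ligand for the same receptors as Jag1, read 8.42, 8.55, 9.17 and 8.83 in Tbx5+/- and 8.36, 8.46, 9.02 and 8.84 in wild-type, so the samples of a number lay close to each other and the difference was 0.07 (95% interval -0.45 to 0.60). Dll4, the arterial endothelial ligand, read 7.69, 6.86, 6.63 and 6.73 in Tbx5+/-, where 3 arrays were well above background, and 6.71, 7.07, 7.03 and 7.08 in wild-type. Number 1 went the other way from the rest, with Tbx5+/- higher by 0.97 there and lower by 0.21 to 0.40 in numbers 5, 6 and 7. The fitted difference was 0.0046 (95% interval -0.56 to 0.57), and -0.23 without Tbx5+/- 1 (adjusted p = 0.310 in limma).

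The target genes encode repressors of the basic helix-loop-helix class. Hes1 read 10.04, 9.40, 7.67 and 9.18 in Tbx5+/- and 9.86, 10.01, 9.23 and 9.56 in wild-type. Tbx5+/- 6 was the lowest array by far, and the 60 bases of the probe span 296 bases of the genome. The difference was -0.59 ± 0.44 (SE, n = 4 per group; adjusted p = 0.419 in limma, 0.169 with the block). It was -0.92 without Tbx5+/- 1 (adjusted p = 0.124 in limma), -0.12 without Tbx5+/- 6 and -0.05 when the gap of each array was a covariate. Hey1 read 14.22, 13.92, 13.62 and 14.15 in Tbx5+/- and 14.17, 13.92, 14.03 and 13.58 in wild-type, with complete overlap and a difference of 0.05 (95% interval -0.42 to 0.53). Hey2 read 9.17, 8.19, 7.41 and 8.10 in Tbx5+/- and 8.45, 7.81, 8.14 and 7.62 in wild-type. Tbx5+/- held both the highest and the lowest Hey2 sample, and the difference of 0.21 (95% interval -0.58 to 0.998) became -0.11 without Tbx5+/- 1. With the gap as a covariate it was 0.68 (adjusted p = 0.147 in limma). For none of the target genes was a difference beyond the spread between samples shown, and the widest interval, that of Hes1, runs from -1.58 to 0.40.

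The RefSeq promoter table (GRCm38.p6, 250 bases before to 50 after each start) held 9 windows for 8 of the 10 genes and was searched for the letters GTGGGAA, the core bound by Rbpj, on both strands. They occur in 6.38% of its 32851 windows. Hes1 and Hey1 had no window and were not searched. Among the 8 members with a window only Hey2 held these letters, once on each strand. The sites are shown within 30 bases because Hey2 is a known direct target, with the motif in capitals and read on the strand of the gene.
Hey2, 207 bases before the start, chr10:30842973-30843002 (minus strand): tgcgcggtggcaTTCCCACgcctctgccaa
Hey2, 4 bases before the start, chr10:30842770-30842799 (minus strand): ctgggctgcagcGTGGGAAagaacctccag
The match describes letters in the reference and was not measured here.

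Of 38 other genes of the pathway 33 were tested, each by its brightest probe, and 0 passed in limma without the block. The smallest adjusted p among these probes was 0.113, and 10 genes were lower and 1 higher at an unadjusted p under 0.05 (18.5% and 3.37% of all probes). The difference was below 0 for 23 and above 0 for 10, with a median of -0.34 beside -0.19 over all probes, and 5 genes were lower without overlap and 0 higher (8.98% and 0.744% of all probes). Lfng, Rfng, Ncstn, Maml3 and Hes7 had no probe well above background on all arrays of a group. With the block 3 of the 33 passed, all lower, namely Fbxw7, Maml2 and Pofut1, a share near the 10.7% of all probes called lower. Over all 50 tested probes of these genes 0 passed in the unpaired fit and 8 were called lower with the block and 0 higher, in 6 genes. The added genes were Kdm5a, a histone demethylase (probes at -1.70 and -0.999), Aph1b, a gamma-secretase subunit (-1.24), and Itch, a ubiquitin ligase (-0.98), whose brightest probes differed by 0.36, 0.22 and -0.09. These Kdm5a probes were each well above background on 1 Tbx5+/- array and the Itch probe on 0, against 4 wild-type arrays. They were tested through wild-type alone, so their differences rest on Tbx5+/- signals near background.

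Fbxw7, the ubiquitin ligase subunit that marks the Notch intracellular domain for breakdown, read 9.74, 8.89, 8.10 and 8.59 in Tbx5+/- and 10.04, 10.62, 9.66 and 10.40 in wild-type. Only Tbx5+/- 1 reached the wild-type range, the difference was -1.35 (adjusted p = 0.113 in limma, 0.0356 with the block), and a second Fbxw7 probe differed by -1.25 (0.0349 with the block). Maml2, a Mastermind-like coactivator, read 7.58, 6.98, 5.86 and 7.10 in Tbx5+/- (3 arrays well above background) and 7.73, 8.36, 8.01 and 8.29 in wild-type. It did not overlap between the groups and differed by -1.22 (adjusted p = 0.129 in limma, 0.0451 with the block). Pofut1, which adds the O-fucose that Notch receptors need, read 12.11, 10.74, 8.90 and 10.52 in Tbx5+/- and 12.55, 12.20, 11.78 and 12.50 in wild-type. Its difference was -1.69 (adjusted p = 0.172 in limma, 0.0364 with the block), but the second Pofut1 probe differed by 0.11. With the gap as a covariate the differences of Fbxw7, Maml2 and Pofut1 were -0.95, -0.92 and -0.91.

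The next genes by p did not pass in either fit. Maml1, another coactivator, differed by -0.56, Spen, a corepressor that binds Rbpj, by -0.92, and Dtx4, a Deltex ubiquitin ligase, by 0.65 (adjusted p with the block 0.0771, 0.0791 and 0.0748). The other Dtx4 probes differed by -0.29 and 0.21. Rbpj itself differed by -0.31 (95% interval -0.78 to 0.17).

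**Figure D4:**
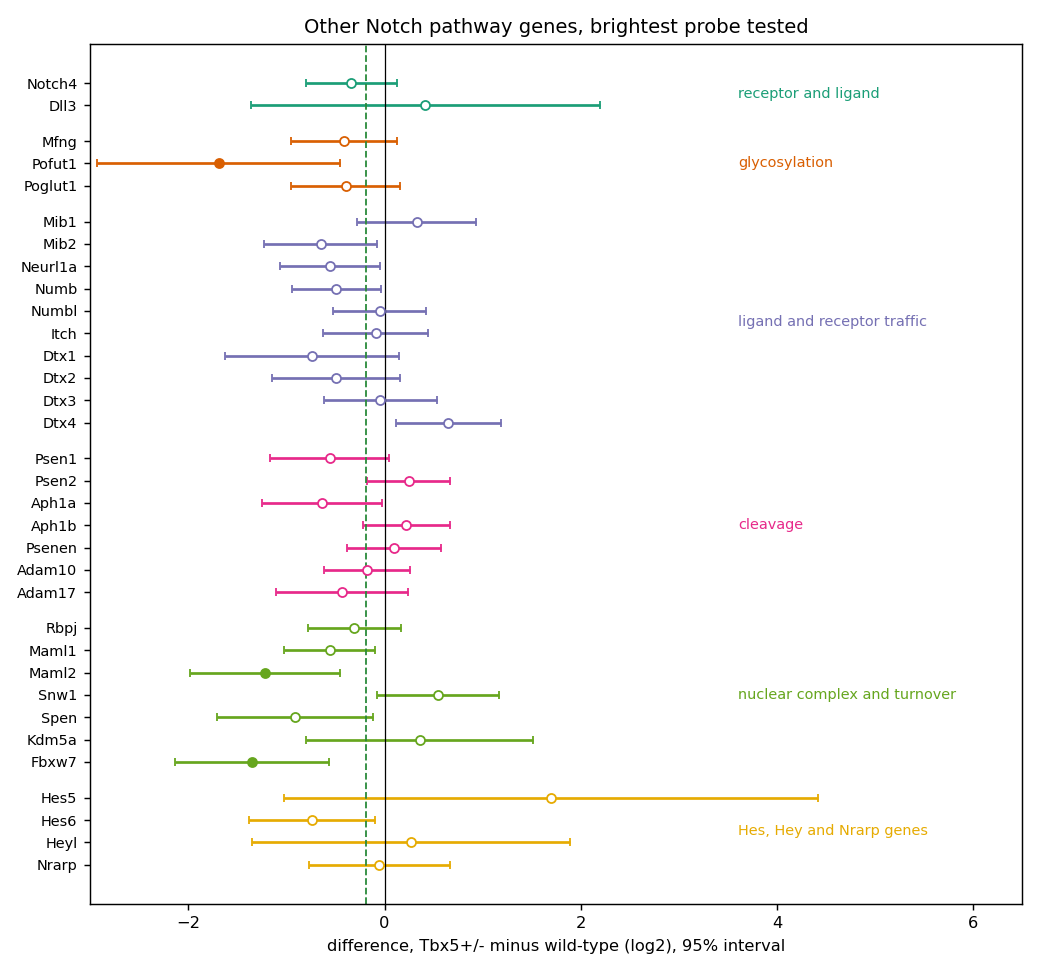
Difference of the brightest tested probe of 33 other Notch pathway genes, Tbx5+/- minus wild-type on the log2 scale (x axis) with the 95% interval from limma, grouped by role. Filled points passed with the replicate block (Fbxw7, Maml2 and Pofut1), the dashed line is the median of all probes at -0.19, and Dll3 lacks Tbx5+/- 6, whose spot was an outlier.

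The scaling between arrays set the balance of directions among all probes. The median over all probes was -0.19 with VSN, 0.10 with percentile scaling (75th), -0.016 after quantile normalization and -0.25 after centring VSN values on array medians, and among probes with an unadjusted p under 0.05 the lower ones made up 84.6%, 35.6%, 50.2% and 89.7%. Under the same settings the member median lay 0.22, 0.21, 0.061 and 0.22 above that of all probes. Notch1 A_51_P508510 stayed negative (-0.62 after percentile scaling, -0.49 after quantile normalization, -0.90 after centring) and Jag1 positive (0.79, 0.55 and 0.39), whereas Notch3 turned to 0.28 after percentile scaling.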

How the data were processed

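RNA of the pSHF was measured on 8 Agilent 1-colour arrays. The deposited scanner files hold intensity values from Agilent Feature Extraction 10.5.1.1 (submitters' processing notes), with the mean signal and the local background of each spot. A deposited table gives log2 values of 22405 probes, which the authors had corrected for background and VSN-normalized. The study's methods describe a filter for the probes it tested. Whether that filter made this table, and with which version, is not given in the sources used here.

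From the intensities, each spot's mean signal was reduced by its median local background, spots marked as outliers were left out (0 spots were saturated), repeated spots were averaged, and VSN was programmed in R 4.3.3 (7 iterations, 90% of probes kept). On each array Pearson's r with the deposited table was at least 0.9999. The test took probes well above background on each of the 4 arrays in either group. Groups were compared with limma 3.58.1 (lmFit, eBayes, no covariate, two-sided), with Benjamini-Hochberg adjustment over all 20030 probes and a threshold of 0.05, and single values by exact two-sided permutation over 70 assignments. Scripts were tested on simulated data. Samples with the same embryo number deviated together (correlations 0.438, 0.400, 0.593 and 0.137), weakly for number 7, and from these values the numbers were taken to pair the samples. The sample titles do not say that equal numbers are paired, and samples of a number also share an array label. The fit with the number as a block is given beside the unpaired one, which follows the study's methods. The number of arrays limits the precision.

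All members and their probes are named, with Tbx5, the other pathway genes called with the block or among the 6 with the smallest p, and markers. Notch4, Rbpj, Dll3, Kdm5a, Aph1b and Itch were added after their values were seen, and so were the endothelial, arterial and pSHF markers named. The members and lists were chosen with earlier results of these data known. Alternatives changed the scaling (75th percentile, normexp with an offset of 50 and quantile, centring), the values, the filter, the model and the test, and left out each array in turn.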

Additional observations from a re-analysis of the deposited data

Results flagged for a closer look

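In 93 groups of 4 arrays of the member, Tbx5 and pathway probes, 6 had 1 array that stood apart from the others by Dixon's test, where chance gives about 1 in 20. Among the members it was wild-type 1 for Dll4, at 6.71 below the other wild-type arrays. For Tbx5 it was wild-type 6, at 10.42 below the rest. For the gamma-secretase genes it was wild-type 7 for Psen2 (10.9995, below the rest), Tbx5+/- 6 for Aph1a (7.01, below) and Tbx5+/- 6 for Aph1b (10.5035, above). For the protease Adam17 it was wild-type 1 (10.69, above).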

How the results depend on the processing

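Notch1 A_51_P508510, Jag1, Dll1 and Hes1 kept their direction in every alternative run. Member probes called numbered 2 with SAM and 5 with array weights (both Notch1 probes, Notch2 A_52_P448796, Jag1 and Dll1), which called 10003 probes in all, and 0 to 1 with an array left out. Those higher without overlap numbered 1 after percentile scaling, 1 after centring and 0 to 1 with an array left out. Those lower without overlap numbered 0 after quantile normalization, 0 with the filter on all 8 arrays and 1 to 3 with an array left out. Shares over all probes without overlap are not given for these settings, and leaving out an array makes such a separation easier for every probe. These counts are therefore not a result about the members. The member median was 0.31 after percentile scaling and -0.067 to 0.058 with an array left out. Over only the 7 member probes that the filter of the methods keeps it was -0.55, in limma and in SAM alike, on unchanged VSN values. Probes called overall numbered 3438 with SAM, 271 with the filter of the methods, 2217 with the replicate block and 0 to 3833 with an array left out (3833 without Tbx5+/- 1, 211 without wild-type 1). Other pathway genes called numbered 7 with SAM, 18 with array weights, 3 with the replicate block and 0 to 5 with an array left out.

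Tbx5 passed at -2.12 with SAM, the filter of the methods and the replicate block, at -2.52 with array weights, and, of the fits with an array left out (-2.39 to -1.95), in those without Tbx5+/- 1 and without wild-type 1. Small differences changed sign. Dll4 was -0.051 after centring, -0.27 with array weights, -0.0091 in the deposited values and -0.23 to 0.12 with an array left out. Hey1 was -0.0024 after centring and -0.062 to 0.17 with an array left out, and Hey2 was -0.11 to 0.48. With the gap as a covariate Jag2 was -0.15 and Notch2 A_52_P289213 was -0.22, and Jag2 was -0.068 to 0.19 with an array left out. Notch3 was 0.28 after percentile scaling and -0.20 to 0.027 with an array left out. The cause was not tested. The replicate block changed no call of a member. With 4 arrays a group, the SE of a member's difference was 0.18 to 0.51, and dim probes such as Dll4 and Notch2 A_52_P448796 lie near background.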

Other observations

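Hes5, a Notch target of neural progenitors, was named after its values were seen. It read 13.38, 10.88, 10.49 and 9.10 in Tbx5+/- (numbers 1, 5, 6 and 7) and 7.38, 12.93, 7.81 and 8.93 in wild-type. The difference of 1.70 had a 95% interval of -1.02 to 4.42, and the range of Hes5 within wild-type exceeded it. It was 0.89 without Tbx5+/- 1 and -0.011 with array weights. The SAM q-value was 0.0277, where SAM called 4.61% of its probes higher. Summed neural markers were 12.17, 12.57, 12.16 and 11.89 in Tbx5+/- and 10.69, 13.72, 12.10 and 12.32 in wild-type. Their part in the Hes5 values was not tested.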
